A study of Homo sapiens with 14 samples.

Results

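FOS, FOSB, FOSL2, JUN, JUNB, JUND, EGR1, EGR3, ATF3 and IER2 are immediate early genes of the AP-1 and EGR type, and were followed through 14 RNA-seq libraries of CHP-134 cells, an established human neuroblastoma line with amplified MYCN. They were chosen by gene symbol, and all 10 are listed under 1 identifier each, both in the table of 17810 genes that holds the EGFP and OmoMYC libraries and in the table of 19143 genes that holds the DMSO and dTAG47 libraries. In the first experiment, CHP-134 lines carrying a lentiviral, doxycycline-inducible construct for either EGFP or OmoMYC, and selected with G418, were grown in serum free of tetracycline with 1 µg/ml doxycycline for 3 days (3 libraries each). OmoMYC, a mutated copy of the part of MYC that forms dimers, takes the place of MYC at its partners, and EGFP is a fluorescent protein used as the control. Each construct sits in its own engineered line, so line and transgene cannot be told apart. In the second experiment, parental CHP-134 cells in ordinary serum received DMSO or 500 nM dTAG47 for 18 h (4 libraries each). The compound dTAG47 links proteins that carry an engineered FKBP12 tag to the ubiquitin ligase cereblon, and the parental cells carry no tagged protein.

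Immediate early genes are transcribed within minutes of a signal from factors that are already present in the cell, and their mRNAs usually decay fast. Growth factors and stress reach them through MAP kinases, with SRF and its ELK partners acting at CArG boxes and CREB/ATF proteins at cyclic AMP response elements (CRE). The FOS and JUN proteins are the subunits of AP-1: JUN proteins can pair with each other, whereas FOS proteins need a JUN partner. EGR proteins are zinc finger factors that bind GC-rich DNA, ATF3 is a stress-induced relative of AP-1, and IER2 is a small nuclear protein. In the nervous system these genes are widely used to mark cells that have recently been stimulated, and serum or handling can also raise them.

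The proximal promoters are shown because the 10 genes are usually thought of as sharing inputs. RefSeq windows (table for GRCh38.p14) were found for 9 of the 10 members, with a pair of windows for ATF3 and none for EGR3. Each window was trimmed to the 250 bases before the annotated start and placed on GRCh37, the sequence of hg19, by exact match. Those of ATF3 lie at chr1:212738499-212738748 and chr1:212788110-212788359, and any other start of this gene was not searched. EGR1 and JUN are printed because they had the largest changes, JUND because it was the most abundant member per length, and FOS as the best known member. The windows are at chr5:137800918-137801167 (EGR1, plus strand), chr1:59249720-59249969 (JUN, minus strand), chr19:18392433-18392682 (JUND, minus strand) and chr14:75745281-75745530 (FOS, plus strand). All are written 5′ to 3′ on the strand of the gene. Capitals mark CArG boxes, the CRE core TGACG on either strand (also where it lies within the full CRE TGACGTCA), and the CRE-like element TGACATCA.
EGR1: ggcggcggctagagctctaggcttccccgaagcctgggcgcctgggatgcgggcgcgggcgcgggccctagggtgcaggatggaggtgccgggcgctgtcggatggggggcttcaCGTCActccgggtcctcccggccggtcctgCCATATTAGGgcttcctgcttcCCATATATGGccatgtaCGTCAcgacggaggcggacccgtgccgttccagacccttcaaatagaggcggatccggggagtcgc
JUN: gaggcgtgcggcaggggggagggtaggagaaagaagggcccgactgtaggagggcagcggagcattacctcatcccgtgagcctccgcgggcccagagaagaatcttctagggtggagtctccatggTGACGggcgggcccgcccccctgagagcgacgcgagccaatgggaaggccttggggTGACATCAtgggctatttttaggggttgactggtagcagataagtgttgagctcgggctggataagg
JUND: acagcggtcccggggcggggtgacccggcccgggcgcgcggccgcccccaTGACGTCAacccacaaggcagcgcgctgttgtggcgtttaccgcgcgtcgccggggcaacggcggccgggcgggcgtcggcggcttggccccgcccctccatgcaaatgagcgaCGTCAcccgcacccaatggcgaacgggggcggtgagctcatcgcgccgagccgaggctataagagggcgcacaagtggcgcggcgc
FOS: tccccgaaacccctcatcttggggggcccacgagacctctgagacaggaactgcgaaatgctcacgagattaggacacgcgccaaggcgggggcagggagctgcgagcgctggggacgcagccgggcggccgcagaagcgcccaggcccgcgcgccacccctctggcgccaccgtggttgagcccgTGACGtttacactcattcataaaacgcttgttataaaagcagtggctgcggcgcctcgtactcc

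EGR1 held a pair of CArG boxes, which begin at -105 and -83 from the start. No other member window held one, and 1.16% of 35116 RefSeq promoter windows of the same length did. Sequence upstream of these windows was not searched. A CArG box or other site lying there, in FOS or any other member, would have been missed. The absence of a match therefore holds for the window only, not for the gene. The full CRE was found in JUND, beginning at -200, and in 1.65% of all promoters. Its 5-base core was found in 8 members, including FOS at -64, and in 21.2% of all promoters. The element TGACATCA was found in JUN at -67 and in ATF3 at -123 (2.37% of all promoters), and a MEF2 site in JUN at -55 (0.515% of all promoters). The AP-1 sites TGACTCA and TGAGTCA, the EGR sites GCGTGGGCG and GCGGGGGCG, and the E-box CACGTG bound by MYC and MAX were found in no member window, against 4.2%, 5.37% and 6.34% of all promoters. The ETS core CCGGAA was found in 2 members, FOSB and IER2, and in 14.5% of all promoters. The TATA box TATAAA was found in 4 members, ATF3, FOS, FOSB and JUNB, and in 10.7% of all promoters. All motifs were searched on both strands. TGACATCA and the MEF2 site were added to the search after the windows had been seen.

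The libraries held 28060817 to 53451641 counts. Levels are given as CPM, each gene's counts relative to the library total after TMM scaling within its experiment. In bulk RNA a smaller number of cells of a type and less RNA per cell cannot be told apart. Replicates were compared by chi-square per degree of freedom, a measure that is near 1 when libraries differ by read sampling only. EGFP replicate 1 stood apart from replicates 2 and 3 (23.7 and 47.7), and in the parental experiment DMSO replicates 1 and 2 (2.75), DMSO replicates 3 and 4 (3.35) and dTAG47 replicates 3 and 4 (2.79) were closer than other pairs, which gave 6.19 to 24.8. All 10 adrenergic neuroblastoma markers checked were counted in every group, although TH and DBH were near the limit of detection (group means of 0.238 to 0.769 and 0.405 to 1.16 CPM). With OmoMYC 5 of these 10 were induced and 1 was suppressed against EGFP (60% called, against 53% of all tested genes). The summed level of 9 mesenchymal markers was 101 to 111 CPM with EGFP, 97.7 to 106 with OmoMYC and 45.9 to 50.7 in the parental libraries, and blood markers never summed to over 1.23 CPM. Among the blood markers PTPRC was at 0.406 CPM with EGFP (11 to 13 counts) and 0.0392 CPM with OmoMYC (0 to 2 counts). Of 8 tested mesenchymal markers, 3 were induced and 2 suppressed with OmoMYC, with CD44 at 3.11 and 10.3 CPM and YAP1 at 7.91 and 3.67 CPM in the EGFP and OmoMYC lines. Epithelial markers reached 6.29 CPM in dTAG47 replicate 2, which held 202 counts of KRT8 and 46 of KRT18, against at most 1.61 CPM in the other libraries. Mitochondrially encoded genes took 2.54% to 3.36% of the counts with EGFP, 4.15% to 4.53% with OmoMYC and 4.67% to 5.19% in the parental libraries. The part of these differences in the results below was not tested.

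OmoMYC and EGFP lines were compared first, to ask how the genes stand when MYC proteins are opposed for 3 days. JUN and EGR1 were each over 2-fold higher with OmoMYC, JUND was slightly higher, and FOSL2 and ATF3 were slightly lower, while FOS itself stayed near the limit of detection. By edgeR's quasi-likelihood test with Benjamini-Hochberg adjustment over 13803 genes, 3 members were induced, 2 were suppressed and 4 were not called at an FDR of 0.05. EGR3 had too few counts to be tested. Among all tested genes 53% were called, 27.3% as induced and 25.7% as suppressed, so a share of 55.6% among the 9 tested members is close to the background. Their median log2 fold change was 0.26, against 0.01 over all tested genes. That median is the value of FOSB, which was not called and had 27 counts in total with EGFP and 36 with OmoMYC. The libraries of the 2 lines did not overlap for 5 members, and for 62.3% of all tested genes. With a trend on GC content and transcript length removed from each library, 61.3% of genes and 6 members were called, 2 as induced and 4 as suppressed. In that setting 3047 of all tested genes were induced and 5416 suppressed. The median log2 fold change was then -0.08 over all tested genes and -0.12 over the members. The fitted trend included each library's mean deviation in log2 CPM, so this setting also changed the scaling between libraries. The median shift of a gene's log2 fold change from the main fit was -0.09. The part of the trend and that of the scaling were not told apart. Without EGFP replicate 1, 2 or 3, 54.2%, 42.7% and 58.9% of genes were called, and without OmoMYC replicate 1, 2 or 3, 42.4%, 45.2% and 41%.

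**Figure D1:**
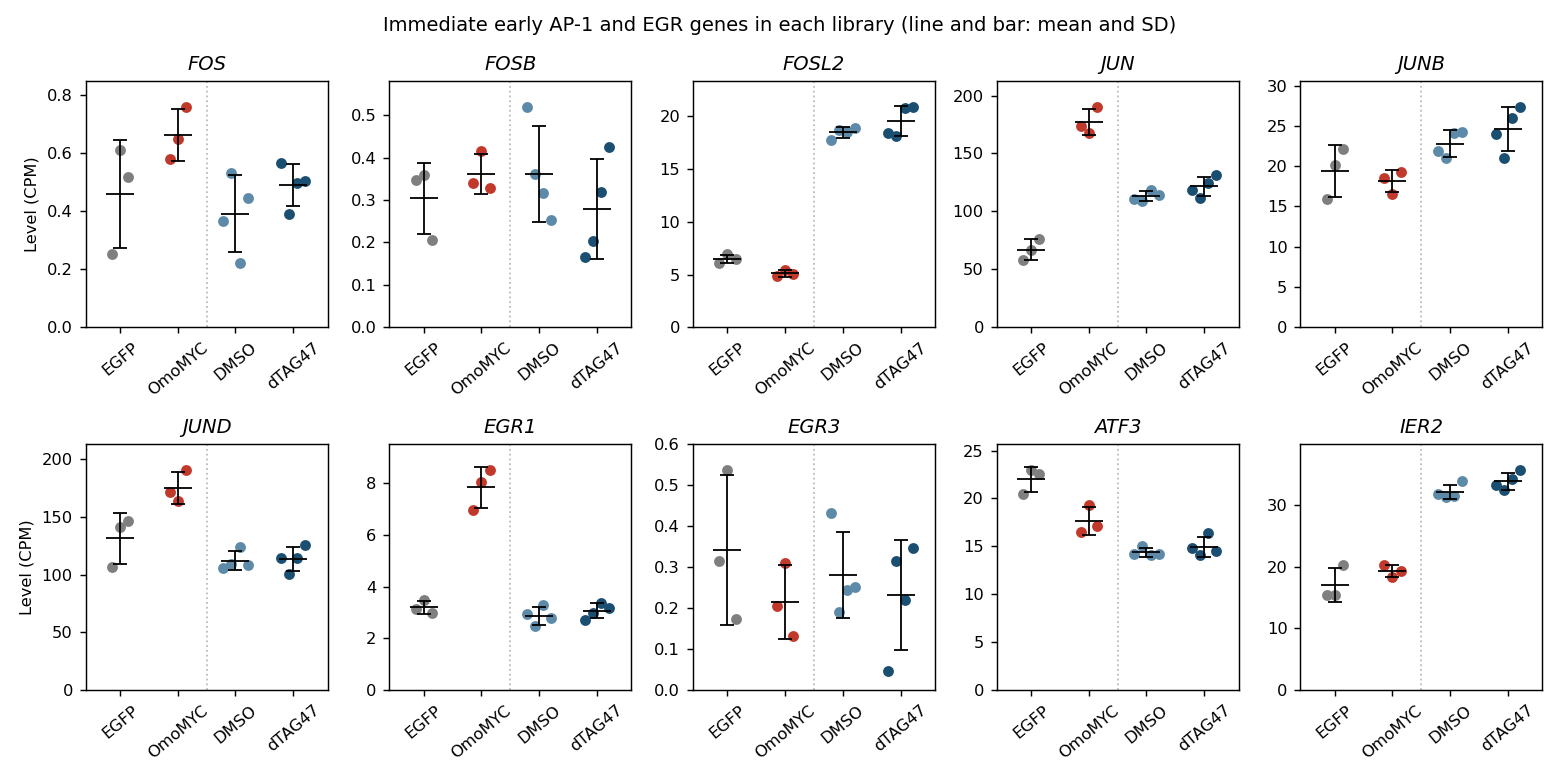
Level (CPM, linear axis from 0) of each member in every library of the 4 groups. Points are libraries, and the horizontal line and bar give the mean and SD (n = 3 for EGFP and OmoMYC, 4 for DMSO and dTAG47). The dotted line parts the experiments, which were scaled separately. All OmoMYC points lie above all EGFP points for JUN, JUND and EGR1 and below them for FOSL2 and ATF3, and DMSO and dTAG47 points overlap for every member.

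JUN (ENSG00000177606.5, chromosome 1 from 59242517 to 59249720, minus strand), the founding member of its family and a target of JNK kinases, showed the largest change. It was at 57.9, 66.9 and 76.3 CPM in the 3 EGFP libraries and at 173, 168 and 190 CPM in the 3 OmoMYC libraries, from 1834 to 6470 counts. The lowest OmoMYC library was thus over 2 times as high as the highest EGFP library. In edgeR's quasi-likelihood fit the log2 fold change was 1.40 (SE 0.10, adjusted p = 2.37e-06), or a 2.64-fold rise with a 95% interval of 2.27 to 3.08. JUN ranked 545 of 13803 genes by log2 fold change, at the percentile of 96.1.

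EGR1 (ENSG00000120738.7, chromosome 5 from 137801168 to 137804992, plus strand), a zinc finger factor that activates many neuronal and growth genes, was low in both lines. It was at 3.12, 3.47 and 3.00 CPM with EGFP (87 to 99 counts) and at 6.96, 8.07 and 8.52 CPM with OmoMYC (204 to 311 counts). Every OmoMYC library exceeded every EGFP library. The log2 fold change was 1.30 (SE 0.13, adjusted p = 2.67e-05, edgeR's quasi-likelihood test), a 2.46-fold rise (95% interval 2.01 to 3.00). JUN and EGR1 were among the 6.68% of tested genes that were called with a log2 fold change above 1. Both kept their direction and their call in all 15 alternative analyses, with log2 fold changes of 1.08 to 1.47 for JUN and 1.00 to 1.37 for EGR1.

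JUND (ENSG00000130522.4, chromosome 19 from 18390504 to 18392432, minus strand, a single exon) is the JUN protein that most cells express without stimulation. It was at 106, 141 and 146 CPM with EGFP and at 171, 164 and 190 CPM with OmoMYC. The groups did not overlap, but EGFP replicate 1 lay well below the other EGFP libraries. In edgeR's quasi-likelihood fit the log2 fold change was 0.42 (SE 0.11, adjusted p = 0.0108). Without OmoMYC replicate 3 the gene was not called (0.32, adjusted p = 0.0784), and with the GC and length trend removed the difference was 0.0062 (adjusted p = 0.904). JUND was the most GC-rich member, with 69.9% G and C in its longest transcript.

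JUNB (ENSG00000171223.4, chromosome 19 from 12902300 to 12904129, plus strand, a single exon), which often opposes JUN on shared promoters, was not called. Its levels were 15.9, 20.2 and 22.2 CPM with EGFP and 18.6, 16.6 and 19.2 CPM with OmoMYC, and the groups overlapped (log2 fold change -0.10, adjusted p = 0.522, edgeR's quasi-likelihood test). JUNB was called suppressed without EGFP replicate 1 (-0.24, adjusted p = 0.0312) and with the GC and length trend removed (-0.48, adjusted p = 6.96e-06). Of the JUNB exon, 259 bases lie opposite an exon of HOOK2, and the strand setting of the counting is not given in the sources used here.

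Of FOS, FOSB and FOSL2, FOSL2 was the one counted at more than 26 reads in a library. FOSL2 (ENSG00000075426.7, chromosome 2 from 28615315 to 28640184, plus strand), a FOS relative without the strong activation domain of FOS, was at 6.09, 6.91 and 6.44 CPM with EGFP and at 4.84, 5.45 and 5.03 CPM with OmoMYC. The OmoMYC libraries were all lower (log2 fold change -0.34, SE 0.11, adjusted p = 0.0289, edgeR's quasi-likelihood test). This call was lost without EGFP replicate 2 (-0.32, adjusted p = 0.0841), OmoMYC replicate 1 (-0.30, adjusted p = 0.103) or OmoMYC replicate 3 (-0.36, adjusted p = 0.0609), and the difference was larger with the GC and length trend removed (-0.68, adjusted p = 3.27e-05).

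FOS (ENSG00000170345.5, chromosome 14 from 75745529 to 75748933, plus strand), the classical rapid-response subunit, had 8, 17 and 15 counts with EGFP and 17, 25 and 23 with OmoMYC. These correspond to 0.252, 0.609 and 0.517 CPM and to 0.580, 0.649 and 0.756 CPM, and the groups overlapped. The log2 fold change of 0.54 (95% interval -0.21 to 1.29, adjusted p = 0.199, edgeR's quasi-likelihood test) does not tell a 2-fold rise from no change at this depth. FOSB (ENSG00000125740.9, chromosome 19 from 45971253 to 45978437, plus strand), whose stable splice product accumulates in neurons with repeated stimulation, had 6 to 11 counts with EGFP and 10 to 16 with OmoMYC (0.26, 95% interval -0.54 to 1.06, adjusted p = 0.568).

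EGR3 (ENSG00000179388.8, chromosome 8 from 22545172 to 22550993, minus strand), a relative of EGR1, had 10, 15 and 5 counts with EGFP and 6, 12 and 4 with OmoMYC. It was below the filter on low counts, and without that filter its log2 fold change was -0.61 with a 95% interval of -1.71 to 0.50. The rise of EGR1 and the counts of EGR3 were therefore not compared.

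ATF3 (ENSG00000162772.12, chromosome 1 from 212738676 to 212794119, plus strand), which dimerises with JUN proteins and answers to cellular stress, was at 20.5, 23.0 and 22.6 CPM with EGFP and at 16.5, 19.3 and 17.2 CPM with OmoMYC. Every OmoMYC library was lower (log2 fold change -0.32, SE 0.09, adjusted p = 0.0159, edgeR's quasi-likelihood test). The call was lost without EGFP replicate 2 (-0.31, adjusted p = 0.0513) or OmoMYC replicate 1 (-0.27, adjusted p = 0.080). IER2 (ENSG00000160888.6, chromosome 19 from 13261225 to 13265725, plus strand) was at 15.3, 15.5 and 20.2 CPM with EGFP and at 20.3, 18.4 and 19.3 CPM with OmoMYC. The groups overlapped through EGFP replicate 3, and IER2 was not called (0.18, adjusted p = 0.202), but it was called induced without that library (0.29, adjusted p = 0.0166) and suppressed with the GC and length trend removed (-0.23, adjusted p = 0.0148). Antisense transcripts overlap 662 and 946 exonic bases of IER2.

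**Figure D2:**
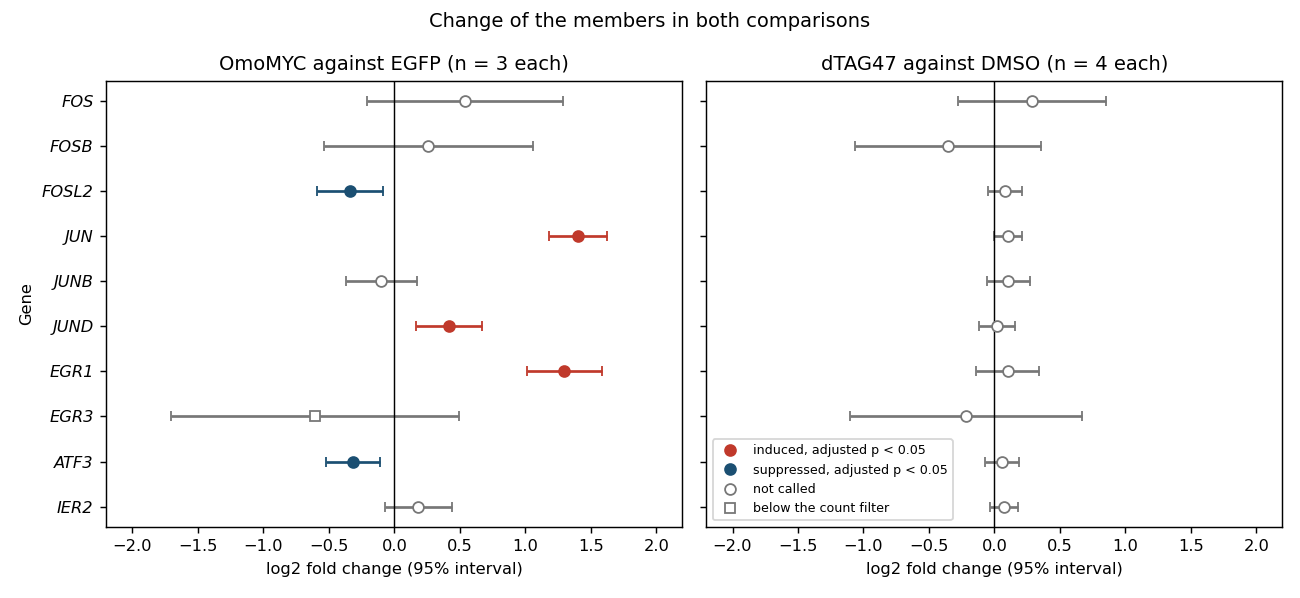
Log2 fold change of each member with its 95% interval for OmoMYC against EGFP (left, 3 libraries each) and dTAG47 against DMSO (right, 4 libraries each), from edgeR's quasi-likelihood fit. Filled points passed an adjusted p of 0.05 and open points did not, and the square is EGR3, which was below the count filter. JUN at 1.40 and EGR1 at 1.30 lie far right of the other members in the left panel, and no point is filled in the right panel.

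Parental cells treated with dTAG47 served as the control experiment, which asks whether the compound alone moves these genes. None of the 10 members was called, and DMSO and dTAG47 libraries overlapped for every one. With edgeR's quasi-likelihood test, 0.159% of 14470 tested genes were called and 3.34% had groups that do not overlap. At an unadjusted p below 0.05 the number of members was 0 as well, against 7.28% of all tested genes, and DESeq2 and limma-voom also called 0 (0.453% and 0.152% of genes). The fit with a replicate block called 0 members and 4.62% of genes, and the fit with the GC and length trend removed called 0 members and 0.788% of genes. The median log2 fold change of the members was 0.08, with a range of -0.36 to 0.29, against a median of -0.0018 over all tested genes. By the sign of the log2 fold change 8 members were higher with dTAG47 and 2 were lower.

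JUN came closest to a call. It was at 111, 109, 118 and 114 CPM with DMSO and at 119, 111, 125 and 131 CPM with dTAG47, with replicates 3 and 4 higher than 1 and 2 in both groups on average (116 against 110 CPM with DMSO, 128 against 115 with dTAG47). The log2 fold change was 0.10 (95% interval -0.01 to 0.21, adjusted p = 0.673, edgeR's quasi-likelihood test). With a factor for replicates 1 and 2 against 3 and 4, JUN was called at the same size (0.10, adjusted p = 0.0466), a setting in which 5.49% of genes were called. In replicates 3 and 4 alone it was at 0.13 (adjusted p = 0.00782, 6.17% of genes called), and in replicates 1 and 2 alone at 0.08 (adjusted p = 0.794, 0.0483% of genes called). The 95% interval of the main analysis spans ratios of 0.996 to 1.16.

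For the other abundant members the intervals were also narrow. The dTAG47 to DMSO ratio was 1.01 for JUND (95% interval 0.923 to 1.11), 1.08 for JUNB (0.963 to 1.21), 1.06 for FOSL2 (0.968 to 1.16), 1.04 for ATF3 (0.949 to 1.14) and 1.05 for IER2 (0.978 to 1.13). EGR1, at 2.46 to 3.29 CPM with DMSO and 2.70 to 3.38 CPM with dTAG47, had a ratio of 1.07 (0.907 to 1.27). The intervals of the scarce members were wide: 0.825 to 1.81 for FOS, 0.478 to 1.28 for FOSB and 0.467 to 1.59 for EGR3. EGR3 had 2 counts in dTAG47 replicate 1 and 11 to 18 in the other dTAG47 libraries. Leaving out dTAG47 replicate 2, which held the epithelial counts, left every member uncalled (0.579% of genes called), with JUN at 0.14 (adjusted p = 0.102).

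The order of levels across the 4 groups differed from gene to gene. JUN ran from EGFP (57.9 to 76.3 CPM) through DMSO (109 to 118) and dTAG47 (111 to 131) to OmoMYC (168 to 190), and only DMSO and dTAG47 overlapped. EGR1 was at 2.46 to 3.47 CPM in the DMSO, dTAG47 and EGFP libraries, which overlapped, and at 6.96 to 8.52 CPM with OmoMYC. JUND was likewise at 100 to 146 CPM in those 3 groups and at 164 to 190 CPM with OmoMYC.

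A different order held for the members that separate the experiments. FOSL2 was at 4.84 to 6.91 CPM in the engineered lines and at 17.7 to 20.9 CPM in parental cells, and IER2 at 15.3 to 20.3 against 31.3 to 35.6 CPM. ATF3 went the other way, with 14.1 to 16.4 CPM in parental cells, 16.5 to 19.3 CPM with OmoMYC and 20.5 to 23.0 CPM with EGFP. When the 14 libraries were scaled together over the 17227 genes listed in both tables, the order of the group means was kept for every member except EGR1, whose lowest groups overlap, and the gap between dTAG47 and OmoMYC closed for ATF3 and FOS. Parental and engineered cells differ in serum, selection, transgene, doxycycline and experiment, which cannot be told apart here, and no test was made between them. FOS (0.220 to 0.756 CPM), FOSB (0.165 to 0.519 CPM), EGR3 (0.0470 to 0.537 CPM) and JUNB (15.9 to 27.3 CPM) showed no gap between experiments.

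Levels of different genes were compared per kilobase of exon. The length joins the exons of all annotated transcripts, which for FOS gives 3186 bases against 2104 in its longest transcript. Shares and ratios between genes depend on this choice. JUN, JUNB and JUND summed to 97.1 ± 15.4 CPM per kb with EGFP, 150 ± 11 with OmoMYC, 102 ± 5.87 with DMSO and 106 ± 9.13 with dTAG47 (SD, n = 3, 3, 4 and 4). FOS, FOSB and FOSL2 summed to only 1.10 ± 0.114, 0.986 ± 0.0610, 2.77 ± 0.0813 and 2.93 ± 0.229 CPM per kb. The JUN sum was thus 87.9 ± 9.94 times the FOS sum with EGFP, 152 ± 14.9 times with OmoMYC, 36.8 ± 2.66 times with DMSO and 36.1 ± 1.5 times with dTAG47. FOSL2 made up 72.4% to 93.2% of the FOS sum as group means. FOSL1, which is no member, was left out of this sum.

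Within the JUN family, JUND was the most abundant in all 14 libraries. JUN made up 19.1% ± 1.05 of the family sum with EGFP and 32.7% ± 0.332 with OmoMYC (SD, n = 3 each), while JUNB made up 10.7% to 11.1% and 6.46% to 6.91%. In both lines the shares varied less among replicates than the CPM did. JUN, JUNB and JUND were all lowest in replicate 1 among the EGFP libraries and in replicate 2 among the OmoMYC libraries. In parental cells the JUN share was 29.6% to 31.4% with DMSO and 31.2% to 32.6% with dTAG47. The parental libraries were thus nearer to the OmoMYC than to the EGFP libraries in JUN, and above both in JUNB, at 11.7% to 13.2%.

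**Figure D3:**
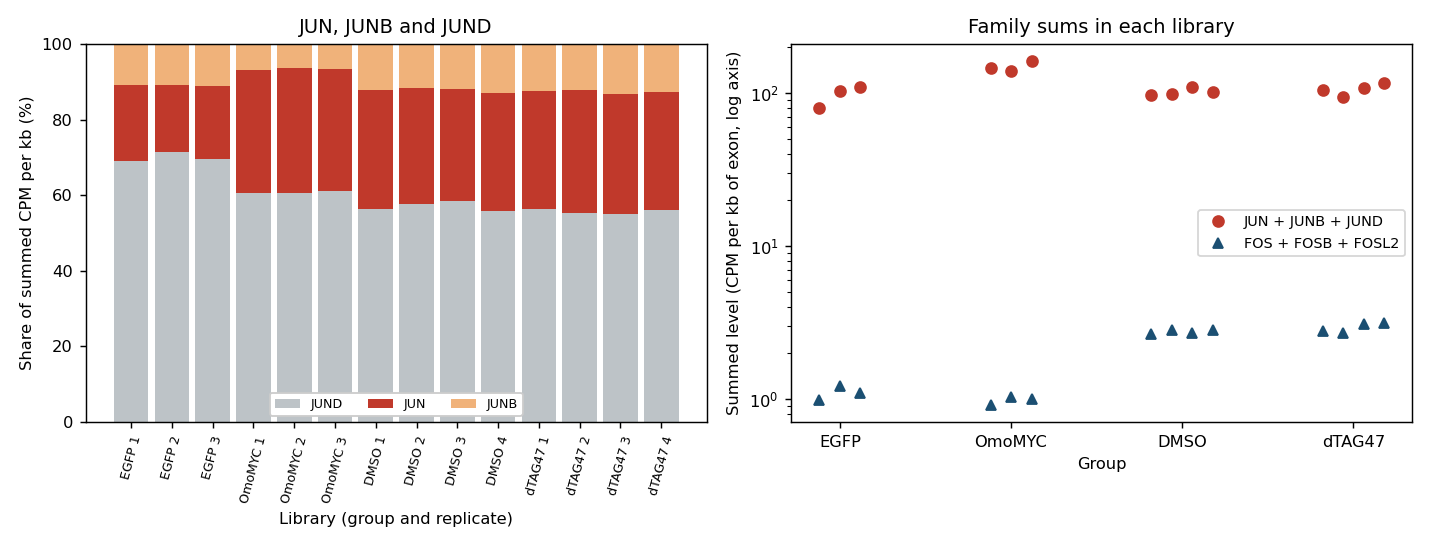
Left, share of JUND, JUN and JUNB in their summed level (CPM per kb of exon, percent) in each library. Right, summed level of JUN, JUNB and JUND and of FOS, FOSB and FOSL2 in each library (log axis). JUN takes 19.1% on average with EGFP and 32.7% with OmoMYC, and the family sums lie 36.1 to 152 times apart as group means.

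Replicate spread was widest for the scarcest members. FOS, FOSB and EGR3, with 2 to 26 counts in a library, had SDs of log2 CPM at percentiles of 78.2 to 99.95 among tested genes. In the DMSO group FOSL2, JUN, ATF3 and IER2 were at percentiles of 13.8 to 22.5, JUNB and JUND at 61.0 and 60.7, and EGR1 at 81.3. In the EGFP group JUN, JUNB, JUND and IER2 were at percentiles of 67.2 to 80.5, where the median gene had an SD of 0.15.

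The genes whose pattern over the 14 libraries was most like that of 4 members were found by the root mean square difference of log2 CPM, centred within each experiment, among 11961 genes. SH2D3C (0.0366), PYGB (0.0422) and RTN4RL2 (0.0447) were nearest to JUN, and CLU (0.104), MAPT (0.117) and AMIGO1 (0.123) to EGR1. MRPL17 (0.0552), MRPL36 (0.0581) and TBL1X (0.0618) were nearest to ATF3. GGT1 (0.231), EIF3C (0.244) and FAM181B (0.264) were nearest to FOS, at distances that are large beside its own root mean square of 0.399 around its means. The 3 genes nearest to JUN had log2 fold changes of 1.40 to 1.48 with OmoMYC, and those nearest to EGR1 of 1.25 to 1.43. Likeness is given as a description only.

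Genes around the 10 members were read from 7 lists. With OmoMYC, 11 of 28 other immediate early genes were induced and 6 suppressed (60.7% called, against 53% of all tested genes, and median 0.21). KLF4, a zinc finger factor of differentiation, rose from 0.830 ± 0.132 to 2.16 ± 0.429 CPM (log2 fold change 1.38), and PPP1R15A, which restores translation after stress, from 10.6 ± 1.45 to 23.2 ± 0.982 CPM (1.13). The orphan nuclear receptor NR4A1 fell by 0.49 and the kinase SGK1 by 0.85 on the log2 scale. With the GC and length trend removed, 8 were induced and 9 suppressed and the median was -0.06. In that setting the median over all tested genes was -0.08, with 3047 induced and 5416 suppressed, so the balance of directions moved over all genes too. The same background applies to the counts with the trend removed in the lists below.

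Of 12 tested other AP-1 and dimer partner genes, 2 were induced, 1 was suppressed and 9 were not called, or 25% called against 53% of all genes. ATF5, a stress-responsive relative of ATF4, rose from 4.61 ± 0.752 to 7.96 ± 0.633 CPM (log2 fold change 0.79). ATF4, the main factor of the amino acid stress response, was slightly lower (-0.21), and was not called without EGFP replicate 2 (-0.21, adjusted p = 0.0600), OmoMYC replicate 1 (-0.22, adjusted p = 0.0618) or OmoMYC replicate 2 (-0.23, adjusted p = 0.0529) in edgeR's quasi-likelihood test. With the GC and length trend removed, 3 of the 12 were induced and 4 suppressed.

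Of 15 upstream transcription factors and coactivators, 7 were induced and 3 suppressed (66.7% called, against 53% of all tested genes). CRTC1, a coactivator of CREB, rose from 24.7 ± 4.68 to 82.5 ± 6.45 CPM (log2 fold change 1.74) and the acetyltransferase CREBBP from 183 ± 19.3 to 323 ± 19.9 CPM (0.82). CREM, a CREB relative, fell by 0.63 and ELK3, an SRF partner, by 1.14 on the log2 scale. With the GC and length trend removed, the counts were 5 and 5, where 61.3% of all genes were called. Of 16 kinases, 7 were induced and 2 suppressed (56.2% called, against 53% of all tested genes), or 4 and 6 with the trend removed. MAPK10, the neuronal JNK, rose from 69.5 ± 3.70 to 163 ± 5.53 CPM (1.22) and RPS6KA1 by 0.98, while RPS6KA3 fell by 0.37. MAP2K1, a kinase of ERK, was lower (-0.25), and was not called without OmoMYC replicate 2 (-0.26, adjusted p = 0.0620) or OmoMYC replicate 3 (-0.26, adjusted p = 0.0543) in edgeR's quasi-likelihood test.

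Among 8 EGR co-repressors and targets, 3 were induced and 1 was suppressed, or 50% called against 53% of all tested genes (1 and 4 with the GC and length trend removed). SYN1, a synaptic vesicle protein, rose from 50.3 ± 5.62 to 107 ± 3.55 CPM (log2 fold change 1.09), and NAB1, a co-repressor of EGR proteins, fell by 0.36. The neuropeptide precursor VGF rose by 0.51, and was not called with the trend removed (0.063, adjusted p = 0.340, edgeR's quasi-likelihood test). Among 9 AP-1 targets, 3 were induced and 1 was suppressed, or 44.4% called (3 and 4 with the trend removed). The adhesion receptor CD44 rose from 3.11 ± 0.364 to 10.3 ± 2.00 CPM (1.73). HMOX1, heme oxygenase, was lower (-0.53), and was not called without EGFP replicate 2 (-0.52, adjusted p = 0.0648), OmoMYC replicate 1 (-0.51, adjusted p = 0.0720) or OmoMYC replicate 2 (-0.51, adjusted p = 0.0633).

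Among 10 genes for binding and decay of AU-rich mRNAs, which include many immediate early transcripts, 1 was induced and 4 were suppressed, or 50% called against 53% of all tested genes (1 and 5 with the trend removed). HNRNPD fell from 444 ± 39.5 to 318 ± 16.9 CPM (log2 fold change -0.48) and ZFP36L2 by 0.41 on the log2 scale. The neuronal binding protein ELAVL3 was called higher (0.37) and lost its call and its direction with the trend removed (-0.062, adjusted p = 0.154, edgeR's quasi-likelihood test).

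**Figure D4:**
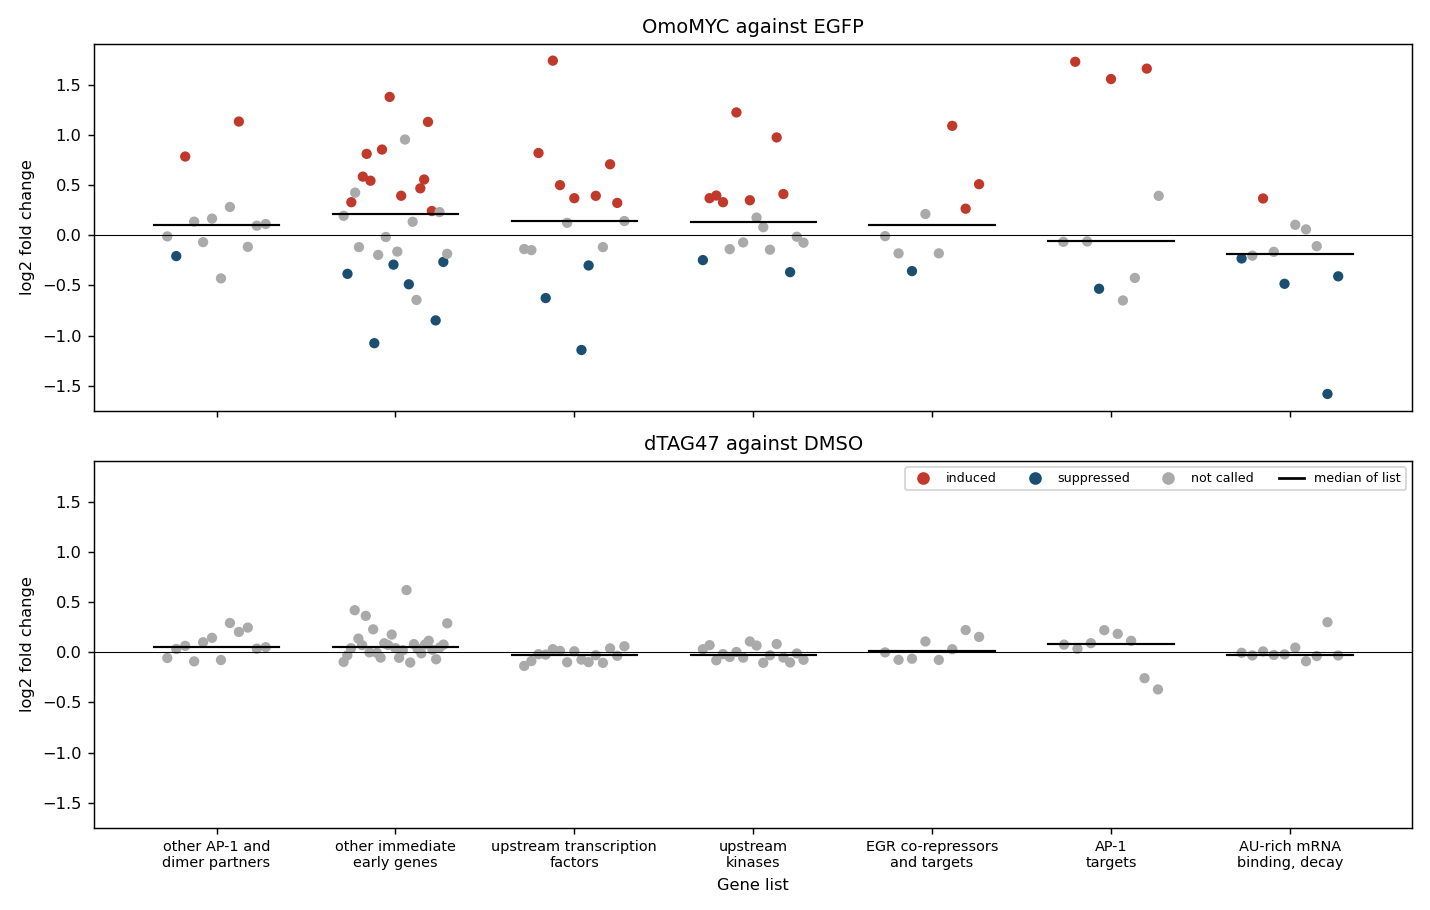
Log2 fold change of every tested gene of the 7 lists in OmoMYC against EGFP (top, 3 libraries each) and dTAG47 against DMSO (bottom, 4 libraries each). Each point is 1 gene, coloured by its call at an adjusted p of 0.05, and the bar is the median of the list. Points of both colours occur in each list in the top panel, and no gene is called in the bottom panel.

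With dTAG47, 0 genes were called in each of the 7 lists by edgeR's quasi-likelihood test, where 0.159% of all tested genes were called. DMSO and dTAG47 libraries did not overlap for 4 of 12 other AP-1 and dimer partner genes and 2 of 29 other immediate early genes. The same held for 1 of 8 AP-1 targets and for 0 genes in the other lists, against 3.34% of all tested genes. The largest difference by absolute size was 0.29 for JDP2, a repressor that pairs with JUN, 0.23 for ID1 (adjusted p = 0.275), -0.14 for ATF1, 0.11 for MAPK3, 0.22 for TGFB1 (adjusted p = 0.549), -0.37 for TIMP1 and -0.09 for TIA1, each in its own list among genes of at least 1 CPM. ID1 was called with the factor for replicates 1 and 2 against 3 and 4 (0.23, adjusted p = 0.000341) and without dTAG47 replicate 2 (0.28, adjusted p = 0.0136), and TGFB1 likewise (0.22, adjusted p = 0.00440, and 0.29, adjusted p = 0.0183). The share of all tested genes called was 5.49% with the factor and 0.579% without dTAG47 replicate 2. With the factor, 1 of 29 other immediate early genes was called. ID1 and TGFB1 were also called with the GC and length trend removed (0.18, adjusted p = 0.00292, and 0.17, adjusted p = 0.0294). In that setting 0.788% of all tested genes were called. The calls of ID1 and TGFB1 thus depended on the setting of the fit, and not only on the treatment of the replicates.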

How the data were processed

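RNA-seq of 14 CHP-134 libraries was analysed. Per the authors, rRNA was depleted before sequencing, Cutadapt trimmed the reads, STAR mapped these to hg19, and FeatureCounts gave the gene counts. Versions, annotation and strandedness are not given in the sources used here. The deposited values are whole-number counts per gene without normalization, in 1 table per experiment, and 0 columns of per-sample values were left unused. Each table was analysed on its own in R 4.3.3 with edgeR 4.0.16 (filterByExpr, TMM, robust quasi-likelihood test, Benjamini-Hochberg adjustment over all tested genes, FDR 0.05). DESeq2 1.42.0 and limma 3.58.1 (voom), other scaling factors and filters, a replicate block, replicates 1-2 and 3-4 apart and leaving out each library were alternatives. Removing each library's trend on GC content and length of the longest transcript, known for 97.8% and 98.1% of tested genes, and joint scaling were added after seeing the data. The trend was fitted with an intercept, so its removal also took out each library's mean deviation in log2 CPM. Log2 CPM used a prior count of 2. Exon lengths and positions come from GENCODE 44 lifted to GRCh37. Fits were tested on simulated data.

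The text names all 10 members. From each list it names the 2 largest called rises and falls with a mean of at least 1 CPM or, with no call, the largest difference. One item that this rule names is not reported here. The members and lists were chosen with earlier results of these data known, so no test was made over the members. The study's methods call the replicates of both experiments biological, and do not say how the cultures were kept apart, so p-values measure the spread between these libraries. For a single gene, the smallest p that an exact 2-sided permutation test can give is 0.1 for the engineered lines and 0.0286 for the parental cells.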

Additional observations from a re-analysis of the deposited data

Results flagged for a closer look

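ATF3 in the DMSO group was singled out by a library far from the others. DMSO replicate 2 was at 15.1 CPM and the other DMSO libraries at 14.1 to 14.2 CPM, and the gap took 0.870 of the whole range, above the 95% critical value of Dixon's test for 4 values. Of 20 such groups of 4 libraries (10 members in DMSO and dTAG47), chance would flag about 1. The groups of 3 libraries are outside this count. Among them IER2 in EGFP replicate 3 was at 20.2 CPM, against 15.3 and 15.5 CPM in replicates 1 and 2. The spread of ATF3 in the DMSO group was small (SD of log2 CPM 0.05, at the percentile of 17.3 among tested genes).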

How the results depend on the processing

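JUN and EGR1 were higher in the OmoMYC than in the EGFP line, and called, under all 15 alternatives run. Leaving out 1 library gave 2 to 4 induced members (without OmoMYC replicate 3 and EGFP replicate 3) and 0 to 3 suppressed members (0 without EGFP replicate 2 or OmoMYC replicate 1), and over all genes 2698 to 4065 induced and 2842 to 4184 suppressed. Removing the GC and length trend gave 5416 suppressed genes and 4 suppressed members, and reversed IER2 (-0.23), FOSB (-0.12) and ELAVL3 (-0.062) with OmoMYC and JUND (-0.031) and TIA1 (8.63e-05) with dTAG47. With dTAG47, induced and suppressed genes (17 and 6) became 44 and 15 in DESeq2, 79 and 35 with the trend removed, 374 and 420 with a factor for replicates 1-2 against 3-4, 4 and 3 in replicates 1-2 alone, 426 and 470 in replicates 3-4 alone, and 4 to 52 and 2 to 32 without 1 library (most without dTAG47 replicate 2), and 11 were induced with library size only. JUN was the 1 member called with the factor and in replicates 3-4 alone. Signs also reversed for FOSB (0.40) and EGR3 (0.19) in replicates 3-4 alone, ATF3 (-0.0089) in replicates 1-2 alone, JUND without DMSO replicate 1 or dTAG47 replicate 4 (-0.031 to 0.076 over all libraries left out), and EGR3 without DMSO replicate 1 or dTAG47 replicate 1 (-0.46 to 0.074). The causes were not tested. FOS, FOSB and EGR3 could not be fitted with at least 10 counts required in every library.

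Deviations of same-numbered libraries from their group means had correlations of -0.07 to 0.29 in the first experiment and 0.01 to 0.16 in the second. Not every library correlated best with its own number. With a replicate block, 306 genes were induced and 362 suppressed with dTAG47, and no call of a member changed (3 induced and 2 suppressed with OmoMYC, 0 and 0 with dTAG47). Counting error limits FOS, FOSB and EGR3, which had 2 to 26 reads in a library.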
